A study of Mus musculus with 6 samples.

Results

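The 9 genes described here encode core parts of Hedgehog signalling: the ligand Sonic hedgehog (Shh), the receptor Patched 1 (Ptch1), the transducer Smoothened (Smo), the transcription factors Gli1, Gli2 and Gli3, the ligand-binding antagonist Hhip, and the co-receptors Gas1 and Boc. They were chosen by gene symbol, and all 9 were found once each among the 21827 genes of the 6 per-library tables. Polyadenylated RNA was sequenced from the distal mandible (the end of the lower jaw bud) of single mouse embryos at E10.75, a midgestation stage at which the jaw is still a bud of mesenchyme covered by epithelium. By the labels, 3 mutant embryos are Msx1f/f;Msx2f/f;Rosa26mTmG/+;Hand2-Cre and 3 control embryos are Msx1f/+;Msx2f/f;Rosa26mTmG/+;Hand2-Cre, each of the 3 litters giving 1 of either kind. Both labels thus carry homozygous floxed Msx2, 1 copy of the mTmG reporter and the same Cre, so no embryo has intact Msx genes. Hand2-Cre is driven by regulatory sequence of Hand2, a gene of distal arch mesenchyme; the green-fluorescent tissue was dissected whole, and no cell sorting is described, so that its epithelium is part of the sample.

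In the unstimulated state Patched holds Smoothened inactive, and Gli proteins, mainly Gli3, are cut into repressors. Binding of a Hedgehog ligand to Patched, helped by the co-receptors Gas1, Boc and Cdon, frees Smoothened to signal at the primary cilium, and Gli2 and Gli3 then act as activators. Gli1, Ptch1 and Hhip are themselves transcriptional targets of the pathway, so their RNA is often read as its output. In the early jaw Shh is made by oral and pharyngeal epithelium, and the neural-crest-derived mesenchyme beneath it responds, with forkhead (Fox) genes among its targets.

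Msx1, the targeted homeobox gene (ENSMUSG00000048450, chromosome 5, 37820485 to 37824583, GRCm38), did not follow the labels. In TPM, a relative level that is already corrected for transcript length, the mutant-labelled embryo of litter 1 had 1.90 and its control-labelled littermate 84.1. In litter 2 the mutant-labelled embryo had 78.8 TPM and its littermate 2.61, and in litter 3 these values were 73.3 and 1.99 TPM. The low library of each litter is therefore mutant-labelled in litter 1 and control-labelled in litters 2 and 3. Each labelled group thus mixes low and high Msx1, and a difference between the labels is not a difference by Msx1 level. Below, each litter is described by its library with Msx1 under 10 TPM (low-Msx1) and its library over 50 TPM (high-Msx1), as values without a test, since the libraries were not regrouped for one. Tests are given for the labels as deposited, fitted here with limma on log2(TPM + 1), and from the authors' deposited table. The direction of that table is not stated, but Msx1 is negative in it, so that a positive value goes with a higher level where Msx1 is lower. It gave Msx1 -5.19 ± 0.26 (standard error), whereas limma between the labels gave 1.41 ± 1.95 (SE, unadjusted p = 0.502). The 2 tests thus do not contrast the same sets of libraries.

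Defining genes of the labelled tissue were present, with Hand2 at 210.0 to 261 TPM and Prrx1, a mesenchymal homeobox gene, at 140 to 155 TPM. All 12 epithelial markers passed the filter on low values (at least 1 TPM in at least 3 libraries), with a summed level of 165 to 184 TPM in the mutant-labelled libraries and 169 to 188 TPM in those labelled control. Markers of pharyngeal endoderm, floor plate and notochord summed to 5.23 to 7.21 TPM in all, with Noto listed at 0 throughout. The mutant-labelled library of litter 1 stood apart in its haemoglobin genes, at 3.06% of the listed TPM against 0.958% to 1.32% in the other 5 libraries, and its littermate in its mitochondrial transcripts, at 8.03% against 6.02% to 6.51%. Read numbers per library are not known from TPM. In bulk tissue, fewer cells of a type and less RNA per cell cannot be told apart.

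None of the 9 genes was called in either test. Under the authors' test, as their deposited table gives it, 0 of 9 passed an adjusted p of 0.05, beside 0.0961% of all genes so adjusted, and 0 of 9 had an unadjusted p under 0.05, beside 1.85% of all genes. Between the labelled groups limma tested 8 of the 9, since Hhip stayed under 1 TPM, and called 0 of them and 0% of the 12152 genes tested. At an unadjusted p under 0.05, limma had 1 member higher in the mutant-labelled libraries (Gli1), where 1.9% of all genes were, and 1 lower (Smo), where 4.82% were. The split of all genes at that p was 231 higher and 586 lower, and became 408 higher and 310 lower after median-of-ratios scaling.

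By mean level the order was Gli3 (102 TPM), Smo (93.9), Gas1 (60.1), Ptch1 (43.0), Gli2 (42.8), Gli1 (25.4), Boc (3.60), Shh (2.28) and Hhip (0.817 TPM). Receptor, co-receptor and Gli RNA thus stood well above ligand RNA, except for Boc, which lay near it. Neighbours whose ranges did not overlap were Smo above Gas1, Gas1 above Ptch1, Gli1 above Boc and Shh above Hhip. Gli3 exceeded Smo in 5 of 6 libraries with overlapping ranges, and Ptch1 and Gli2 could not be ordered, since Ptch1 was the higher in 2 of 6. Gli2 exceeded Gli1, and Boc exceeded Shh, in 6 of 6 libraries, although their ranges over libraries overlapped.

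These places depend on the transcript length that the TPM assume. The base mean of the authors' deposited table, a read-based measure that is not corrected for length, was higher for Hhip (90.7) than for Shh (45.1). Base mean per TPM scales with that assumed length, and was calibrated on 555 genes with a single annotated transcript, whose quartiles lay at 83.1% and 119% of their median. Of the 9 genes Gli3, which is first in the order, had the implied length shortest relative to its longest annotated transcript, at 3970 against 8170 bases. For Gli1 these lengths were 2175 and 4057 bases and for Gli2 4064 and 6637, so the ratios between Gli genes given below rest on assumed lengths too. That of Hhip was 14010 bases, against 9074 for its longest. For the single transcripts of Shh and Boc it was 2499 and 4205 bases, against 2847 and 4451 annotated. The annotation release behind the TPM is not given in the sources used here, and which transcripts carried the reads was not analysed.

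**Figure D1:**
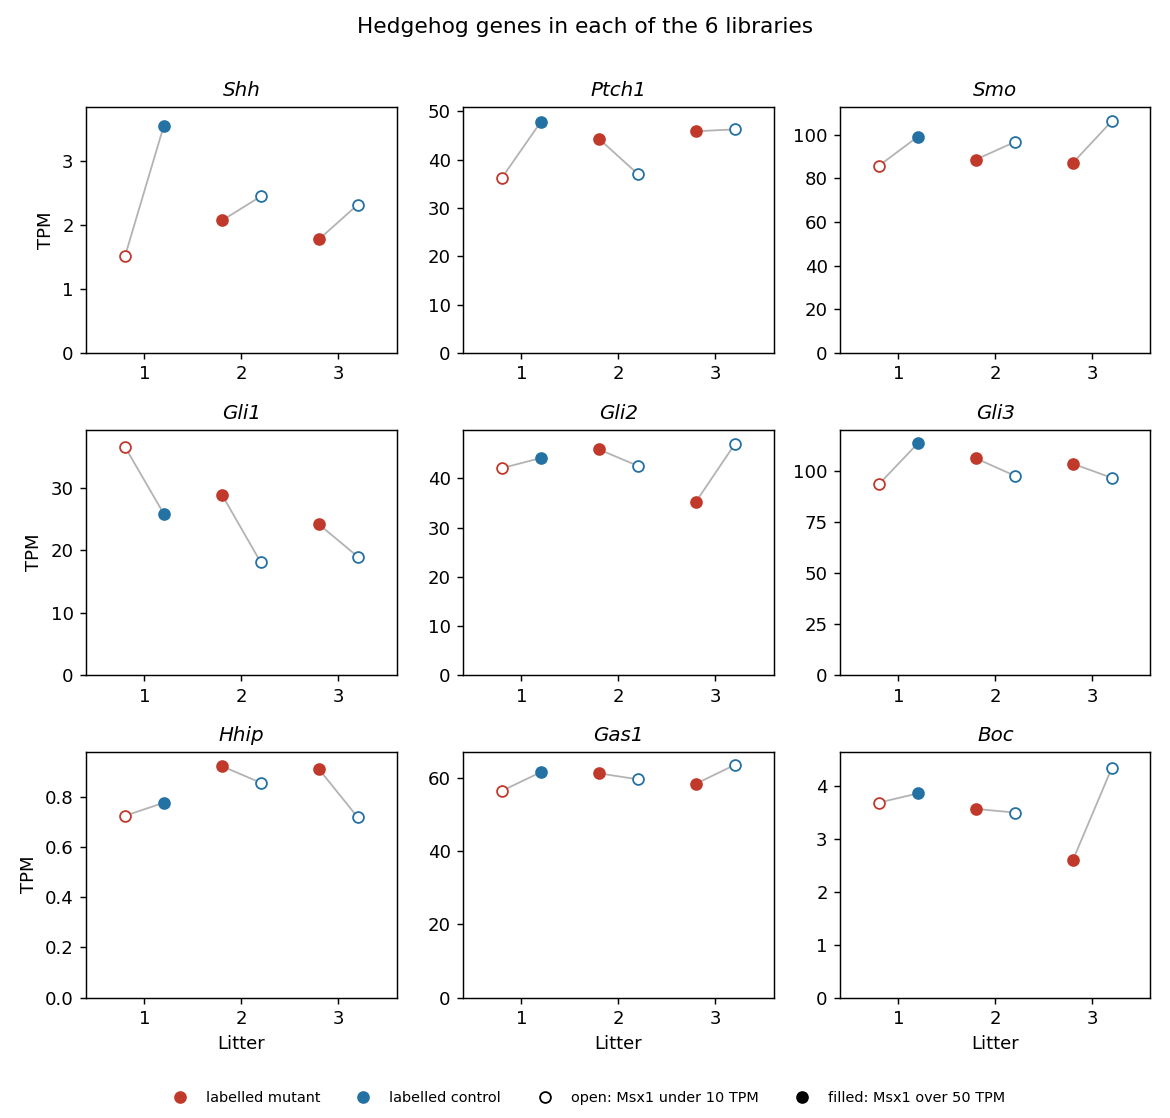
TPM (vertical axis, from 0) of each of the 9 genes by litter (horizontal axis), 1 point per library, with littermates joined; red is labelled mutant, blue labelled control, open points have Msx1 under 10 TPM and filled points over 50 TPM. Shh and Smo are lower in the red point of every litter, Gli1 is higher in it, and Gli3 and Hhip are lower in the open point of every litter.

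Shh, the ligand (ENSMUSG00000002633, chromosome 5, 28456815 to 28467256, minus strand), was low in every library. It was at 1.51, 2.07 and 1.77 TPM in the mutant-labelled libraries of litters 1, 2 and 3, and at 3.55, 2.44 and 2.31 TPM in those labelled control. The labelled groups did not overlap, and the control-labelled library of litter 1 was the highest of the 6. Relative to Msx1 the direction was mixed, with log2 differences (low-Msx1 minus high-Msx1 library) of -0.86, 0.17 and 0.26 in litters 1, 2 and 3. Between the labels limma gave -0.43 ± 0.19 (SE; adjusted p = 0.726), or -0.28 without the control-labelled library of litter 1, and the authors' deposited table gave -0.20 ± 0.55 (standard error; unadjusted p = 0.721).

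Shh RNA was also set beside the epithelium that makes it. As a share of the summed level of the 12 epithelial markers it was 0.916%, 1.20% and 0.963% in the mutant-labelled libraries of litters 1, 2 and 3, and 1.88%, 1.44% and 1.24% in those labelled control. The order within litters was thus the same as for Shh itself, although the epithelial sum was higher in the mutant-labelled library in litter 2. The summed markers of pharyngeal endoderm, floor plate and notochord had the same order as Shh, at 5.23, 5.36 and 7.16 TPM in the mutant-labelled libraries of litters 1, 2 and 3 against 6.63, 6.04 and 7.21 TPM in those labelled control. Among them Foxa2, a forkhead gene of endoderm and floor plate, was at 0.494, 0.954 and 1.39 TPM against 1.14, 1.48 and 1.66 TPM, and Foxa1 was also lower in each mutant-labelled library. The other markers of that list did not share this order. Nkx2-1 was higher in the mutant-labelled library of litters 1 and 3, Sox2 in that of litter 2 and T in that of litter 3, and Noto was at 0. All of these markers were low, and the sums of litter 3 were nearly equal. The part of such sources in the Shh result was not tested.

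Ptch1, the receptor and a pathway target (ENSMUSG00000021466, chromosome 13, 63508328 to 63573598, minus strand), was at 36.3, 37.1 and 46.3 TPM in the low-Msx1 libraries of litters 1, 2 and 3 and at 47.9, 44.3 and 45.9 TPM in their high-Msx1 littermates. The low-Msx1 library differed from its littermate by -24.2% in litter 1, -16.4% in litter 2 and 0.831% in litter 3. Of the 9 genes Ptch1 had the smallest p in the authors' deposited table, which gave it -0.21 ± 0.11 on the log2 scale (standard error; unadjusted p = 0.0555, adjusted p = 1.00). After median-of-ratios scaling Ptch1 was lower in the low-Msx1 library of every litter and the low-Msx1 and high-Msx1 libraries no longer overlapped. Under that scaling 5.09% of all genes were likewise lower without overlap. By label the groups overlapped, and limma gave -0.05 ± 0.13 (SE; adjusted p = 0.938), with a sign that turned under that scaling (0.018).

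Smo, the transducer that Patched restrains (ENSMUSG00000001761, chromosome 6, 29735503 to 29761365, plus strand), was at 85.8, 88.7 and 87.2 TPM in the mutant-labelled libraries of litters 1, 2 and 3 and at 99.1, 96.7 and 106 TPM in those labelled control. The 3 mutant-labelled libraries lay within 3 TPM of each other and below all 3 labelled control. The means were 87.2 ± 1.40 and 101 ± 4.96 TPM (SD, n = 3), and limma gave -0.20 ± 0.07 (SE; unadjusted p = 0.0230, adjusted p = 0.713). After median-of-ratios scaling the difference was -0.13, the groups still did not overlap, and the unadjusted p was 0.0771. With litter as a block in limma the unadjusted p was 0.0523. Relative to Msx1 Smo had no common direction, at -0.20, 0.12 and 0.28 in litters 1, 2 and 3, and the authors' deposited table gave 0.07 ± 0.12 (standard error; unadjusted p = 0.566).

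Of the 8 members tested, 2 (Shh and Smo) were lower in the mutant-labelled libraries without overlap of the groups, as were 10.4% of all genes tested, or 5.55% after median-of-ratios scaling, and 0 were higher without overlap, as were 2.73% of all genes. Under that scaling Shh and Smo were again the 2 such members. Without the control-labelled library of litter 2 they were 5 (Shh, Ptch1, Smo, Gas1 and Boc), where the share of all genes was 23.3%, and without that labelled mutant of litter 2 they were 4 (Shh, Smo, Gli2 and Gas1), where it was 18.5%. In TPM as deposited, lower values in the mutant label prevailed among all genes: 21.2% were lower and 7.64% higher in the mutant-labelled library of all 3 litters. The median labelled log2 difference of all genes tested was -0.06, and became -0.0001 after median-of-ratios scaling.

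The co-receptors differed in level and in spread. Gas1, a membrane-anchored co-receptor (ENSMUSG00000052957, chromosome 13, 60174405 to 60177365, minus strand), was at 56.4, 59.5 and 63.4 TPM in the low-Msx1 libraries of litters 1, 2 and 3 and at 61.5, 61.2 and 58.3 TPM in the high-Msx1 libraries. It was the steadiest of the well-expressed members: its SD of log2(TPM + 1) over the 6 libraries was 0.059, and 6.27% of the 1945 genes over 50 TPM had a smaller one. In the authors' deposited table Gas1 was at -0.013 ± 0.14 (standard error; unadjusted p = 0.921).

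Boc, an immunoglobulin-superfamily co-receptor (ENSMUSG00000022687, chromosome 16, 44485049 to 44558897, minus strand), was at 3.69, 3.50 and 4.34 TPM in the low-Msx1 libraries and at 3.87, 3.57 and 2.61 TPM in the high-Msx1 libraries of litters 1, 2 and 3. Only litter 3 separated the littermates, by 66.7%, against -4.49% and -1.89% in litters 1 and 2. The authors' deposited table gave 0.21 ± 0.34 (standard error; unadjusted p = 0.526). The TPM of Gas1 exceeded that of Boc between 14.6-fold and 22.4-fold in the 6 libraries. In litters 1, 2 and 3 this ratio was 15.3, 17.0 and 14.6 in the low-Msx1 libraries and 15.9, 17.1 and 22.4 in the high-Msx1 libraries. It was thus lower in each low-Msx1 library, although nearly equal between littermates in litters 1 and 2.

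Hhip, a membrane-bound decoy that binds Hedgehog ligands (ENSMUSG00000064325, chromosome 8, 79965851 to 80058006, minus strand), was at 0.724, 0.855 and 0.718 TPM in the low-Msx1 libraries of litters 1, 2 and 3 and at 0.776, 0.921 and 0.909 TPM in the high-Msx1 libraries. The low-Msx1 library differed from its littermate by -6.69%, -7.18% and -21.1%, although the 2 sets of libraries overlapped, and this order did not hold in every litter after median-of-ratios scaling. The authors' deposited table gave Hhip -0.18 ± 0.37 (standard error; unadjusted p = 0.619).

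Gli3, the main source of Gli repressor (ENSMUSG00000021318, chromosome 13, 15463235 to 15730026, plus strand), was at 93.7, 97.8 and 96.8 TPM in the low-Msx1 libraries of litters 1, 2 and 3 and at 114, 106 and 104 TPM in the high-Msx1 libraries. The low-Msx1 libraries all lay below the high-Msx1 ones. The differences were small, at -17.6%, -7.99% and -6.64%, or -0.28, -0.12 and -0.098 on the log2 scale. The authors' deposited table gave -0.17 ± 0.11 (standard error; unadjusted p = 0.120, adjusted p = 1.00).

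Of the 8 members that passed the filter, Gli3 was the 1 with the same direction in all 3 litters, as were 22.7% of all such genes in either direction and 11.9% in that of Gli3. It was also the 1 member whose low-Msx1 and high-Msx1 libraries did not overlap, as was the case for 4.95% of all genes with the low-Msx1 libraries lower. Both statements hold for TPM as deposited, and after median-of-ratios scaling Ptch1 joined Gli3 in both. All genes tested had median differences of -0.09, 0.007 and 0.08 in litters 1, 2 and 3. After median-of-ratios scaling, which removes that shift, the Gli3 differences were -0.17, -0.13 and -0.19 in litters 1, 2 and 3, so that litter 3 had the largest in place of litter 1.

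Gli2, the main activator of the family (ENSMUSG00000048402, chromosome 1, 118834132 to 119053619, minus strand), was at 42.1, 42.5 and 46.9 TPM in the low-Msx1 libraries and at 44.1, 45.9 and 35.2 TPM in the high-Msx1 libraries of litters 1, 2 and 3. The mutant-labelled library of litter 3 was the lowest, as it was for Boc, and the other 5 lay within 5 TPM of each other. The authors' deposited table gave 0.08 ± 0.14 (standard error; unadjusted p = 0.563). The ratio of Gli3 to Gli2 TPM was lower in the low-Msx1 library of every litter, as was that of Gas1 to Boc. It was 2.23, 2.30 and 2.06 against 2.58, 2.32 and 2.94 in the high-Msx1 libraries of litters 1, 2 and 3. In litter 2 the ratios were nearly equal.

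Gli1, the Gli factor whose own transcription depends on the pathway (ENSMUSG00000025407, chromosome 10, 127329882 to 127341974, minus strand), varied more than any other well-expressed member. It was at 36.5, 28.9 and 24.2 TPM in the mutant-labelled libraries of litters 1, 2 and 3 and at 25.8, 18.1 and 19.0 TPM in those labelled control. Its SD of log2(TPM + 1) over the 6 libraries was 0.37, and 95.1% of the 4929 genes between 10 and 50 TPM had a smaller one. For Ptch1 the SD was 0.17, with 57.2% of the same genes below it.

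Within litters Gli1 was higher in the mutant-labelled library by a factor of 1.42, 1.60 and 1.27, but the labelled groups overlapped, because the lowest mutant-labelled value (litter 3) was under the highest control-labelled value (litter 1). The means were 29.9 ± 6.25 and 21.0 ± 4.24 TPM (SD, n = 3), and limma gave 0.49 ± 0.18 (SE; unadjusted p = 0.0274, adjusted p = 0.713). With litter as a block in limma the unadjusted p was 0.00367 and the adjusted p 0.762. Leaving out 1 library at a time moved the difference between 0.34 (without that labelled mutant of litter 1) and 0.64 (without that labelled control of litter 1), and it was never called. Gli1 was the 1 of 8 tested members higher in the mutant label of all 3 litters, as were 7.64% of all genes. Relative to Msx1 it was mixed, at 0.49, -0.65 and -0.33 in litters 1, 2 and 3, and the authors' deposited table gave -0.18 ± 0.25 (standard error; unadjusted p = 0.475). The gene overlaps Arhgap9 on the opposite strand, and whether the counting used strand is not given in the sources used here; Arhgap9 was at 2.94, 1.15 and 1.03 TPM in the mutant-labelled libraries and at 2.14, 1.17 and 1.89 TPM in those labelled control of litters 1, 2 and 3.

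**Figure D2:**
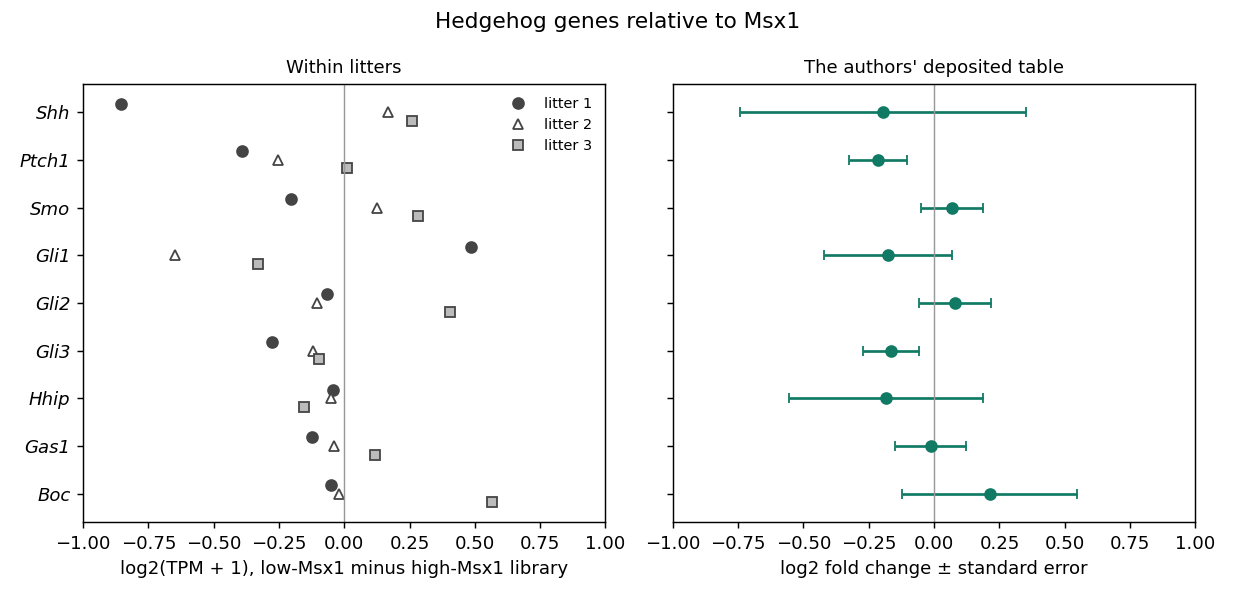
Left, difference in log2(TPM + 1) between the low-Msx1 and the high-Msx1 library of each litter (circles, triangles and squares for litters 1, 2 and 3); right, log2 fold change of the authors' deposited table with its standard error, for the 9 genes (rows). Gli3 and Hhip have all 3 litters below 0, Gli1 ranges from -0.65 to 0.49, and the table's value furthest from 0 is -0.21 for Ptch1.

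Gli1 and Ptch1, the 2 usual readouts of the pathway, did not move together. Their ratio, chosen after the values were seen, was 1.01, 0.652 and 0.526 in the mutant-labelled libraries of litters 1, 2 and 3 and 0.540, 0.487 and 0.410 in those labelled control. It was thus higher in the mutant-labelled library of each litter, and highest in that of litter 1, where Gli1 was at its highest and Ptch1 at its lowest of the 6 libraries. That library is also the one with the high haemoglobin share, whose part in the result was not tested; a ratio within a library does not depend on a factor that scales the whole library. Across the 6 libraries the Pearson r of log2(TPM + 1) between Gli1 and Ptch1 was -0.20, as a description over libraries that share litters. The ratio of Gli1 to Gli2 showed the same order by label, at 0.868, 0.630 and 0.686 against 0.585, 0.425 and 0.405, without overlap. The ratio of Ptch1 to Smo was instead lower in each low-Msx1 library, at 0.423, 0.383 and 0.436 in the low-Msx1 libraries against 0.483, 0.500 and 0.527 in the high-Msx1 libraries of litters 1, 2 and 3, also without overlap. The ratios of Gli3 to Gli2 and of Gas1 to Boc were also lower in each low-Msx1 library. How often the ratios of other gene pairs separate in these ways was not tested, so none of these ratios has a background beside it.

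**Figure D3:**
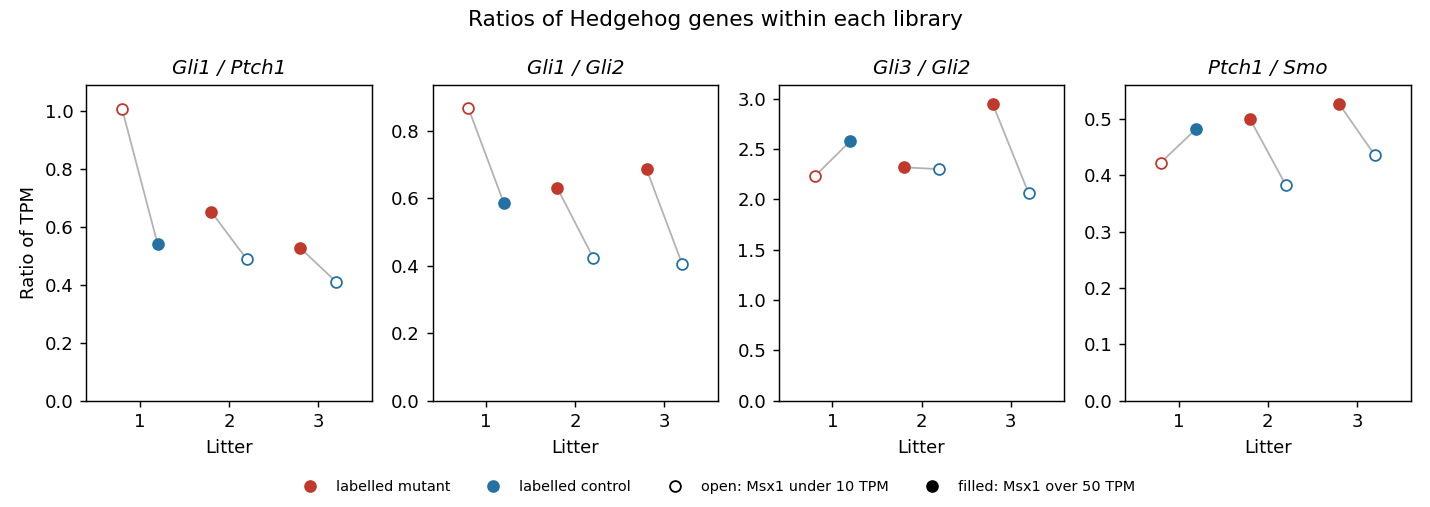
Ratio of TPM (vertical axes, from 0) within each library by litter (horizontal axes), for Gli1 to Ptch1, Gli1 to Gli2, Gli3 to Gli2 and Ptch1 to Smo; colours and fill as in the plot of TPM by library. Ratios with Gli1 are higher in the red point of every litter. The ratios of Gli3 to Gli2 and of Ptch1 to Smo are lower in the open point of every litter.

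The genes whose levels followed these 2 readouts most closely differed between them. Each was compared with 8666 genes of a mean of at least 5 TPM. Predicted genes, clone names, symbols marked as pseudogenes and mitochondrially encoded genes were left out. For Gli1 the highest Pearson r of log2(TPM + 1) over the 6 libraries were those of Eef2k, Atf4 and Atg3, at 0.967, 0.966 and 0.963. For Ptch1 they were those of Nadk2, Rgs5 and Ccdc115, at 0.992, 0.976 and 0.972. With so few libraries high values are common: 23 genes exceeded an r of 0.9 with Gli1 and 93 with Ptch1. None of these 6 genes is in the list of pathway genes below.

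The wider pathway was described with 37 further genes, of which 34 passed the filter on low values. The authors' deposited table adjusts the p of 35 of them, of which 0 passed its threshold, and limma called 0 of 34 between the labels. The median log2 fold change of the authors' deposited table was -0.17 for the 9 members (-0.09 for the 8 without Hhip), 0.01 for the 36 pathway genes with a value and 0.001 for all genes with one. Of the 36, 17 were negative and 19 positive. At an unadjusted p under 0.05 the authors' deposited table held 2 of the 34 (Foxd1 and Ift172). Beside them stood 284 of the 12152 genes that passed the filter, and 1.85% of all genes with a p. At that p limma held 4 (Scube3, Kif3a, Gsk3b and Spop), all lower in the mutant label, where 4.82% of all genes were. Median-of-ratios scaling left 1 of them (Scube3), beside 2.55% of all genes. A litter block in the fit left 2 (Kif3a and Spop), beside 512 lower among the 12152 genes. Over left-out libraries the count was 1 to 5, beside 417 to 969 of all genes lower. The 5 came without the control-labelled library of litter 2, the setting that also gave the 969. The count was 1 each without the control-labelled library of litter 1 (Prkaca), the mutant-labelled one of litter 2 (Kif3a) and that of litter 3 (Scube3).

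Of the 34, 11 had the same direction relative to Msx1 in all 3 litters (8 lower and 3 higher in the low-Msx1 library), beside 22.7% of all genes. Between low-Msx1 and high-Msx1 libraries 6 were lower without overlap (Disp1, Kif7, Prkacb, Foxf2, Foxd2 and Ccnd2), where 4.95% of all genes were, and 2 were higher (Evc and Foxd1), where 4.36% were. After median-of-ratios scaling 4 were lower (without Disp1 and Prkacb) and 3 higher (with Gpc3), beside 5.09% and 4.81% of all genes. By label 9 were lower in the mutant label without overlap, where 10.4% of all genes were, and 4 (Scube3, Kif3a, Spop and Bcl2) after median-of-ratios scaling, where 5.55% were. Higher without overlap were 0, where 2.73% of all genes were, and 1 (Prkacb) after that scaling, for which no share of all genes is given.

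Among ligands and release factors, Ihh was listed at 0 in every library, and Dhh did not exceed 0.284 TPM, so Shh was the Hedgehog ligand with the highest level. Hhat, which attaches palmitate to the ligand, was at 2.68, 2.27 and 3.80 TPM in the low-Msx1 libraries of litters 1, 2 and 3 and at 5.06, 3.05 and 4.01 TPM in the high-Msx1 libraries. Disp1, which releases the lipid-bearing ligand, was at 15.4, 14.8 and 15.0 TPM against 20.0, 20.5 and 15.5 TPM. Both were lower in each low-Msx1 library, and in the authors' deposited table Hhat was at -0.48 ± 0.42 and Disp1 at -0.30 ± 0.22 (standard errors; unadjusted p = 0.257 and 0.177).

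Of the other receptors, Cdon, the co-receptor related to Boc, was at 16.8 to 20.6 TPM, with -0.14 ± 0.14 in the authors' deposited table (unadjusted p = 0.304). Lrp2, an endocytic receptor for Shh, was at 0.840 to 1.78 TPM, with -0.36 ± 0.30 (unadjusted p = 0.240) in the same table.

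Among cilium genes, Evc, whose product binds Smoothened at the base of the cilium, was at 8.04, 7.23 and 10.1 TPM in the low-Msx1 libraries of litters 1, 2 and 3 and at 6.02, 5.61 and 6.67 TPM in the high-Msx1 libraries. Its log2 differences were 0.36, 0.31 and 0.53, and the authors' deposited table gave 0.46 ± 0.28 (standard error; unadjusted p = 0.0971). Evc (chromosome 5, 37289098 to 37336894) lies 484 kb from Msx1 and overlaps Crmp1 on the opposite strand; the part of this position in the result was not tested. Its neighbour and partner Evc2 was mixed, at -0.35, -0.26 and 0.17. Ift172, an intraflagellar transport gene, was at 17.5, 23.7 and 16.4 TPM against 16.5, 13.1 and 11.3 TPM, with 0.50 ± 0.19 in the authors' deposited table (unadjusted p = 0.0109, adjusted p = 1.00).

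Among kinases that prime Gli proteins for cleavage, the catalytic subunit genes of protein kinase A had the smallest p in the authors' deposited table, and Gsk3b in limma (unadjusted p = 0.0409). Prkacb was lower in each low-Msx1 library, at -0.09, -0.16 and -0.25 in litters 1, 2 and 3, and Prkaca was mixed, at -0.10, 0.15 and 0.31. In the authors' deposited table Prkacb was at -0.17 ± 0.14 and Prkaca at 0.12 ± 0.14 (standard errors; unadjusted p = 0.218 and 0.373).

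The forkhead targets went in different directions. Foxd1 (ENSMUSG00000078302, chromosome 13, 98354242 to 98359305) was at 11.2, 11.5 and 9.66 TPM in the low-Msx1 libraries of litters 1, 2 and 3 and at 6.56, 6.24 and 6.99 TPM in the high-Msx1 libraries, without overlap. Foxd2 (ENSMUSG00000055210, chromosome 4, 114906282 to 114908873), of the same subfamily, was at 12.4, 12.3 and 12.3 TPM in the low-Msx1 libraries and at 15.8, 15.5 and 15.7 TPM in the high-Msx1 libraries, also without overlap. Foxf2 was at 7.65, 6.79 and 10.1 TPM against 11.9, 12.7 and 11.2 TPM.

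In litters 1, 2 and 3 the low-Msx1 library thus differed from its littermate by 70.6%, 83.7% and 38.3% for Foxd1 and by -21.8%, -20.5% and -21.5% for Foxd2. At least 0.3 log2 units in 1 direction in every litter was reached by Evc and Foxd1 (higher, as by 0.881% of all genes) and by Foxd2 (lower, as by 0.724%). In the authors' deposited table Foxd1 was at 0.71 ± 0.22, Foxf2 at -0.56 ± 0.32 and Foxd2 at -0.34 ± 0.29 (standard errors; unadjusted p = 0.00160, 0.0786 and 0.233), and the adjusted p of Foxd1 was 0.628. Foxf1 was mixed, at 0.16, -0.06 and 0.06, as was the cell cycle gene Ccnd1, at -0.07, -0.002 and 0.15.

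**Figure D4:**
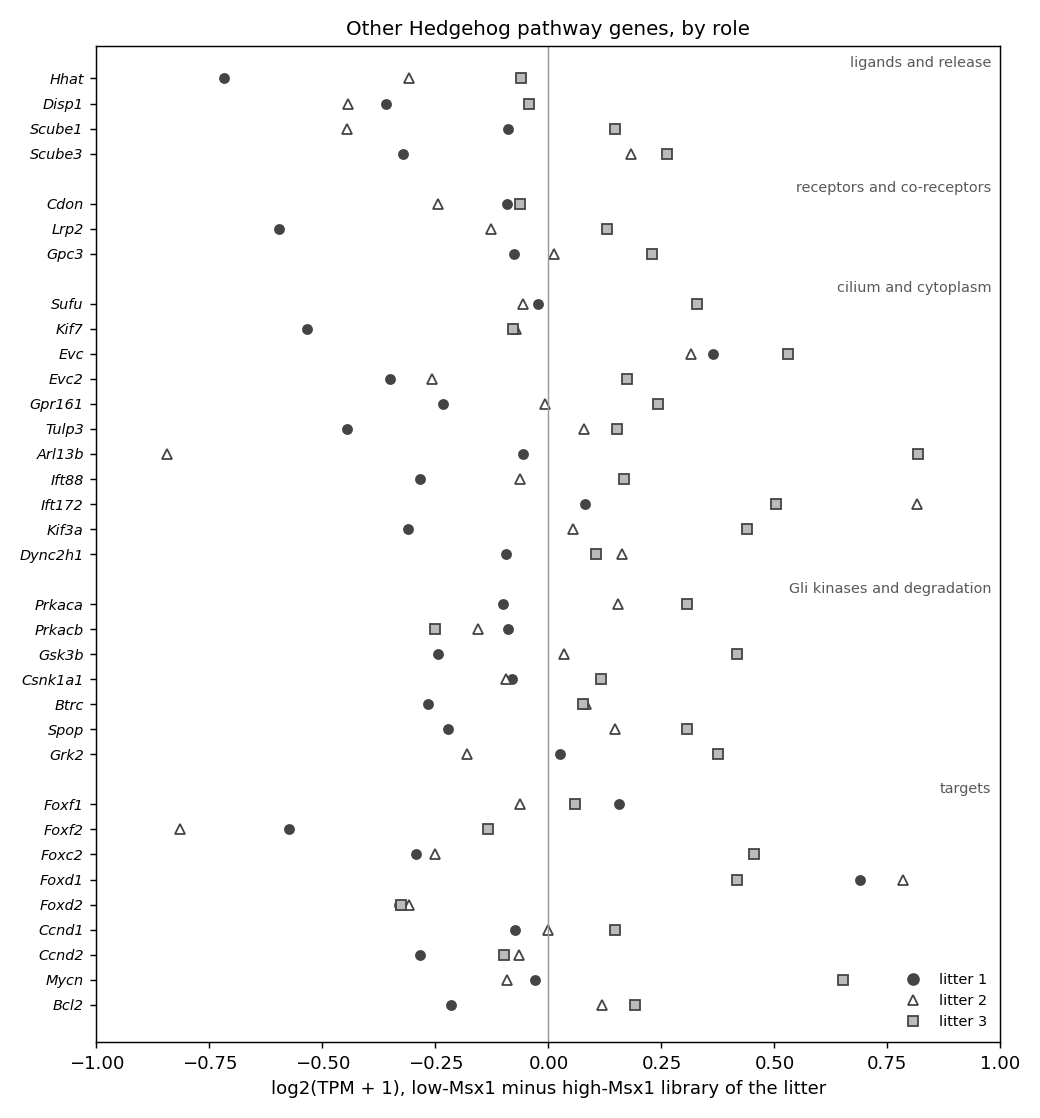
Difference in log2(TPM + 1) between the low-Msx1 and the high-Msx1 library of each litter (horizontal axis; circles, triangles and squares for litters 1, 2 and 3) for the pathway genes that passed the filter (rows, grouped by role). Evc and Foxd1 have all 3 litters above 0.3 and Foxd2 has all 3 below -0.3.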

How the data were processed

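Polyadenylated RNA of 6 mouse distal mandibles was measured, 3 labelled mutant and 3 labelled control. The authors deposited TPM per gene for each library, which sum to between 716208 and 735601 over the listed genes and keep no record of depth. They also deposited a comparison table that holds, per the file headers, the base mean (a signal), the log2 fold change with its error, the Wald score and both p-values. The submitters' processing notes name Salmon 1.5.2, DESeq2 and mm10, without roles.

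The labelled groups were compared with limma 3.58.1 in R 4.3.3 (variance trend, robust) on log2(TPM + 1), a scale that understates changes of low genes. The filter (1 TPM or more in 3 or more libraries) left 12152 genes, tested two-sided with Benjamini-Hochberg adjustment and a threshold of 0.05; the fit was tested on simulated data. An exact permutation test of 3 against 3 libraries cannot go below 0.1 and was not used. P-values rest on 3 embryos per label.

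Litter numbers pair embryos by the series' design; deviations of same-litter libraries from their label means correlated at -0.05, -0.03 and -0.03. Coordinates are from GENCODE vM21 (GRCm38), matched by gene ID. The members, pathway genes and markers were chosen with earlier results of these data known; 1 gene of the pathway list is not reported here. Named were all members; per pathway role, the 2 genes of lowest p in the authors' table; genes past 0.3 log2 in 1 direction in every litter; and the 3 genes most correlated with Gli1 and Ptch1. Other pathway genes were named for counts after their values were seen. Alternatives were litter as a block, pseudocount, filter, scaling and leaving out libraries. Marker sums that are not printed above were 869 to 977 TPM for mesenchyme, 2.32 to 4.95 for muscle progenitors, 67.4 to 80.7 for endothelium, 12.2 to 16.3 for neurons, 1.81 to 3.56 for Schwann precursors, 6.06 to 13.1 for macrophages and 6815 to 22190 for red blood cells.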

Additional observations from a re-analysis of the deposited data

How the results depend on the processing

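Added after seeing the data were the scaling without mitochondrial and haemoglobin genes for values by label, quantile normalization of the within-litter values, and every alternative for the labelled difference of single genes, for counts by label within litters, for groups that do not overlap and for pathway genes at an unadjusted p. The replicate block (litter as a paired term), a pseudocount of 0.1, the other filters and the 3 scalings left 0 genes and 0 members called between the labels; the block gave Gli1 the same difference of 0.49 (adjusted p = 0.762) and changed no call at the adjusted threshold. Leaving out each library gave 0 to 1 gene higher (1 without the control-labelled library of litter 1) and 0 to 1 lower (1 without its mutant-labelled littermate), and 0 to 0 members in either direction. The members lower in the low-Msx1 library of all litters were 2 (Gli3 and Hhip) and ranged from 2 to 6 when a litter was left out, 6 without litter 3; those higher ranged from 0 to 2, the 2 (Shh and Smo) without litter 1. By label, 2 to 6 members were lower in all litters left (6 without litter 2) and 1 to 3 higher (3 without litter 1), and 2 were higher (Gli1 and Hhip) with median-of-ratios scaling or quantile normalization. Members whose labelled groups did not overlap ranged from 2 to 5 lower and from 0 to 1 higher over the left-out libraries: Hhip without the mutant-labelled library of litter 1, and Gli1 without the control-labelled one of litter 1 or the mutant-labelled one of litter 3. With fewer litters or libraries such agreement is easier for any gene. For these counts of members, shares of all genes are given above only for the lower groups without a library of litter 2. These ranges are thus not read as results about the members. The labelled difference turned positive for Ptch1 (0.018 and 0.0046) and Gli3 (0.049 and 0.015) with median-of-ratios scaling and quantile normalization, and for Gas1 (0.00068, median-of-ratios only). Over left-out libraries it ranged from -0.16 to 0.052 for Ptch1, from -0.061 to 0.054 for Gli3 and from -0.51 to -0.28 for Shh. The order by TPM kept 5 of 9 places within the control-labelled library of litter 3. The count of 0 members in the authors' table held with Benjamini-Hochberg adjustment over all genes and at an unadjusted p of 0.05.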
